A study of Mus musculus with 20 samples.

Results

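Collagens are triple-helical proteins of the extracellular matrix, and laminins are cross-shaped trimers of an alpha, a beta and a gamma chain that build the basement membrane. Most of these genes serve differentiated cells such as fibroblasts, cartilage cells and epithelia, while a few laminin chains and type IV collagen are already made in the early embryo. Polycomb repressive complex 2 (PRC2) methylates lysine 27 of histone H3 at CpG-rich promoters of silent genes, and Suz12 is a core subunit that the complex needs for its activity. Its binding at these genes was read from ChIP-seq in E14 cells, a mouse embryonic stem cell line of wild-type genotype grown with serum and LIF on gelatin.

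The genes were the 55 protein-coding genes whose symbols have the form Col, number, a, number or Lama, Lamb or Lamc with a number, 44 collagens and 11 laminins of 21631 protein-coding genes in all. The compared groups were cells given DRB for 12 h against DRB at 0 h, and cells given triptolide for 9 h against triptolide at 0 h, with 2 Suz12 libraries per group. DRB (100 µM) inhibits kinases of transcription elongation, among them that of P-TEFb, and triptolide (10 µM) acts on the TFIIH helicase at initiation. The comparison asks what happens to Suz12 at matrix genes when transcription is blocked. The deposited data are a peak list per library and raw read counts over the peaks. Nothing says that replicates came from separate cultures, so p-values measure the spread between these libraries alone. Treated libraries carry lane numbers 3 and 6 and untreated ones 1 and 4, so lane and treatment cannot be told apart.

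Peaks of the 8 lists were merged into 11943 regions, and a gene was given the regions within 1 kb of either annotated end. Reads counted over the regions numbered 2416523 to 7340017 in treated and 1323927 to 4396744 in untreated libraries. Levels are in CPM, counts per 1e6 of these reads after TMM scaling, and levels of different genes are compared per kb of counted peak. Changes are relative, since no library totals enter them. Where the values of each library are listed below, the DRB library with index ATCACG comes before the other with index TGACCA, and triptolide replicate 1 comes before replicate 2. Among cell type markers, Suz12 peaks were absent from the ends of the pluripotency genes Pou5f1, Nanog, Esrrb and Zfp42. At Sox2 and Klf4 they were in the 4 treated lists only. They were present in all 8 lists at 5 of 6 endoderm genes (all but Gata4) and at 4 of 4 fibroblast regulators. Over all protein-coding genes, 63.2% had no peak at an end and 14.6% had one in all 8 lists. Absence at 4 of 6 pluripotency genes is near that share and does not identify the cells. ChIP-seq of Suz12 does not measure expression.

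The promoter sequences below are examples of different binding patterns and do not show the range of CpG content within each pattern. Each is the stretch of the 250 bases before a listed RefSeq start (GRCm38.p6) that lies in no annotated gene, written 5′ to 3′ on the strand of the gene, with each CG dinucleotide in capitals. Col5a1 (chr2:27886175-27886380, plus strand) and Col8a2 (chr4:126286544-126286793, plus strand) had a Suz12 peak in all 8 lists. Col7a1 (chr9:108953336-108953585, plus strand) and Col18a1 (chr10:77166531-77166780, minus strand) had peaks in treated lists only. Col3a1 (chr1:45311288-45311537, plus strand) had no peak at its ends in any list.

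Col5a1: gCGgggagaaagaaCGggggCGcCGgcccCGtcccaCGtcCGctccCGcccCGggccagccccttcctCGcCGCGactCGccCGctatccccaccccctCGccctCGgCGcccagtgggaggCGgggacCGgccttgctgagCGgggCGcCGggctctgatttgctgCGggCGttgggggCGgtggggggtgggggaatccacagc
Col8a2: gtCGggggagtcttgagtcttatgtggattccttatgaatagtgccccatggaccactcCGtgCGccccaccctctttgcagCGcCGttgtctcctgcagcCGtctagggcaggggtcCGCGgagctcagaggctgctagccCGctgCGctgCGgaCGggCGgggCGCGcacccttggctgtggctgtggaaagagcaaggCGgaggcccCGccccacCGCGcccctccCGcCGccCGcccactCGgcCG
Col7a1: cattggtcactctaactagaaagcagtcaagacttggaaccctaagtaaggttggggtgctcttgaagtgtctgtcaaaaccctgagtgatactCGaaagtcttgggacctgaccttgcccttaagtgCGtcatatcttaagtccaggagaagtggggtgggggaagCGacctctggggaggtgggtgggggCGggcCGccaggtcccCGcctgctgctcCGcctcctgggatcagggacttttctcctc
Col18a1: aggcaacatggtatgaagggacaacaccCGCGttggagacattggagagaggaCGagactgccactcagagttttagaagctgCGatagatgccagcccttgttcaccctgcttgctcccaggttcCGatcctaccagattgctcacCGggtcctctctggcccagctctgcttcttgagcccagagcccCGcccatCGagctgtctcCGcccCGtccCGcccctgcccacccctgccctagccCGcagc
Col3a1: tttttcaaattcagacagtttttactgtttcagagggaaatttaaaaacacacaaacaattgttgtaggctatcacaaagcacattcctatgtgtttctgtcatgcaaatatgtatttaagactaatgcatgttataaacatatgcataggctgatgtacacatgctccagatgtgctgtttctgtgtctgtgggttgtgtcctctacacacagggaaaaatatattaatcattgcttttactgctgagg

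Of these stretches, the 206 bases of Col5a1 hold 25 CG dinucleotides and the 250 bases of Col8a2 hold 24. Col18a1 holds 12, Col7a1 holds 7 and Col3a1 holds 0 in 250 bases each. The patterns overlap in members not shown. Col1a2 and Col8a1, with no peak at an end, hold 11 and 10 in 250 bases. Lamb1, with a peak in all 8 lists, holds 1 in 53 bases.

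Over the 8 lists together, Suz12 was found at the ends of most collagen and laminin genes. A peak in any list was present at 32 of the 55 genes (58.2%), against 36.8% of all protein-coding genes. In any untreated list a peak was present at 27 (49.1%, against 21.0% of all genes). Peaks in all 8 lists were present at 17 (30.9%, against 14.6% of all genes). Only Col7a1, which encodes the collagen of the anchoring fibrils of skin, had peaks in every treated and no untreated list (1.82%, against 4.02% of all genes). No member showed the reverse pattern, and 14 had another pattern. Treated lists held peaks at 21 to 31 members (median 28.5) and untreated lists at 22 to 26 (median 24). These ranges overlap. Over all genes they did not, with 5028 to 7429 genes in treated and 3447 to 4293 in untreated lists.

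Peaks were unevenly spread over the collagen families, a description of small families with no test. Over all protein-coding genes, 63.2% had no peak at an end and 14.6% had one in all 8 lists. Fibrillar collagens form the cross-striated fibrils of connective tissue, and 7 of 11 had no peak at an end, near that share of all genes. Those without one were Col1a1 and Col1a2 (type I collagen of bone, skin and tendon), Col3a1, Col5a2, Col5a3, Col11a1 and Col11a2. Col2a1, the main collagen of cartilage, Col5a1 and Col27a1 had a peak in all 8 lists, and Col24a1 in only 1 list, that of triptolide 0 h replicate 2. Fibril-associated collagens sit on the surface of such fibrils. Of 9, Col12a1, Col14a1 and Col19a1 were bound in all 8 lists, Col16a1, Col9a2 and Col9a3 in 7 lists each, and Col9a1, Col20a1 and Col22a1 at no end. Of the 4 transmembrane collagens, Col13a1, Col23a1 and Col25a1 were bound in all 8 lists and Col17a1, a hemidesmosome protein of skin, in none. Of the 6 type VI chains, which form beaded microfilaments, Col6a1 to Col6a5 had no peak and Col6a6 had peaks in both DRB 12 h lists and in DRB 0 h replicate 1. Col8a2, a chain of the collagen network under the corneal endothelium, and Col26a1 had peaks in all 8 lists, while Col8a1, Col10a1 and Col28a1 had none.

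The type IV collagens of basement membranes are encoded by 3 head-to-head pairs, and each pair had its own pattern. Col4a1 and Col4a2 share a region of 4075 bp that spans both starts (chromosome 8, 11311104 to 11315178, GRCm38) and had a peak in all 8 lists. Col4a3 and Col4a4, whose chains build the adult kidney filter, share a region of 1332 bp (chromosome 1, 82586353 to 82587684) with peaks in 2 treated and all 4 untreated lists. The lists without a peak there were DRB 12 h replicate 1 and triptolide 9 h replicate 1. The X-linked pair Col4a5 and Col4a6 had no peak. The shared regions cannot be assigned to either gene of a pair.

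Among laminins, 9 of 11 genes had a peak in any list, beside 36.8% of all protein-coding genes. Lama1 and Lamb1, chains of the early embryonic basement membrane, and Lamc3 had peaks in all 8 lists, Lamc3 at both of its ends. Lama5, Lamc1 and Lamb2 had peaks in treated lists only: Lama5 and Lamc1 in both DRB 12 h lists and in triptolide 9 h replicate 2, and Lamb2 in 1 treated list at each end. Lama3, an alpha chain of epithelial laminin, had peaks in 5 lists, while the beta chain Lamb3 had none. Lama4, an alpha chain of blood vessels, had peaks in 5 lists. Lama2, the alpha chain of muscle basement membranes, had none. The upper-end regions of Lamb2 and Lamc3 also lie within 1 kb of Usp19 and Aif1l, so peaks there may belong to either gene.

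**Figure D1:**
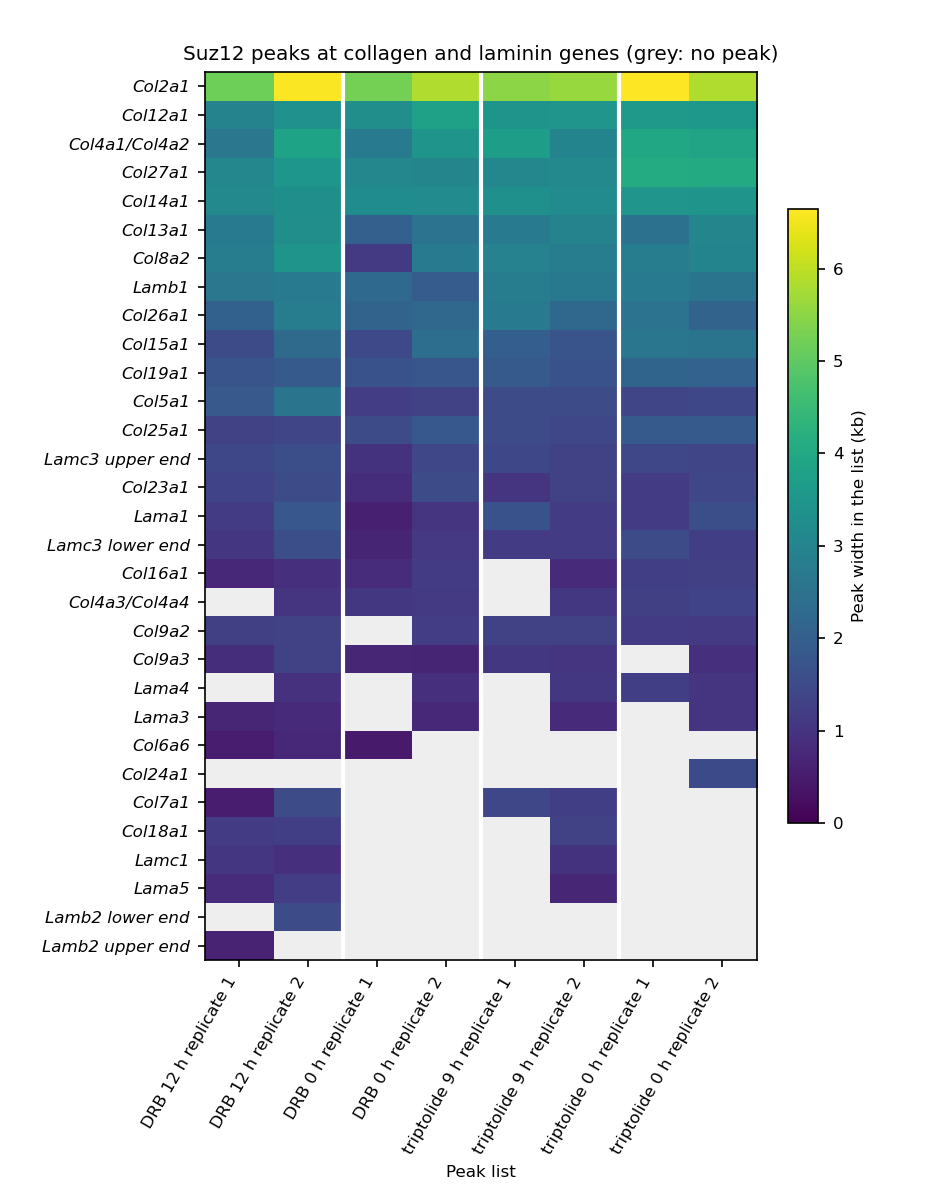
Suz12 peak width in kb (colour) at 31 of the 32 regions (rows) in each of the 8 peak lists (columns, treated left of untreated within each drug), with grey where a list has no peak. Of these regions 17 are filled in all 8 lists, and the 6 lowest rows are filled in treated lists only.

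For 20 of the members the reference listed a start next to a region. The region covered that start for all but Lamb2, where the lower-end region began 131 bp downstream. Regions reached further into the gene than upstream of it, except those of Col27a1, Col4a1, Col4a4 and Col6a6. That of Col27a1 ran from position −2452 to 1661 in bp from the start, that of Col5a1 from −541 to 2214, and that of Col18a1 from −40 to 1281. Col18a1, the source of endostatin, has a second listed start further inside the gene, and the region did not overlap that promoter. All regions touched an annotated gene end except those of Lama3 (gap of 136 bp), of the lower and upper ends of Lamb2 (gaps of 146 and 141 bp) and of the upper end of Lamc3 (gap of 620 bp). The nearest region outside the 1 kb window was 1656 bp from Col1a1 (chromosome 11, 94933723 to 94934568) and had a peak in 1 treated list. Col22a1 had a region inside the gene only (chromosome 15, 72006410 to 72007187), with a peak in 1 treated list.

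**Figure D2:**
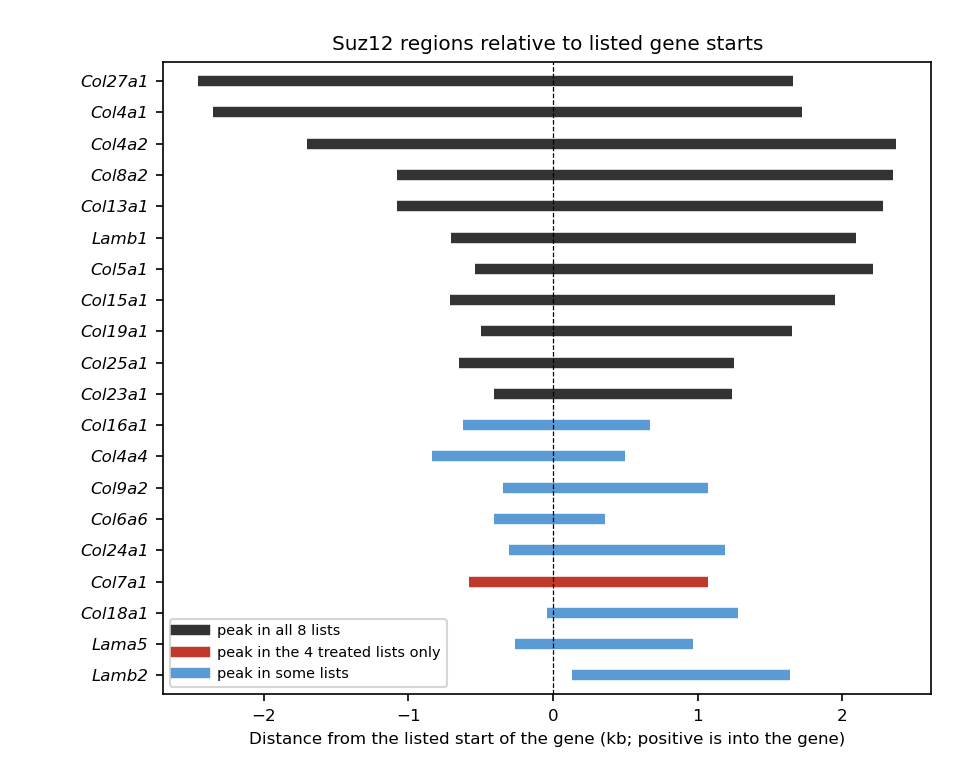
Span of each Suz12 region in kb from the listed start of the gene (0, positive into the gene) for the 20 members with a listed start near a region, coloured by the lists that hold a peak. The widest spans are those of Col27a1, Col4a1 and Col4a2, and the Lamb2 region starts 131 bp after the listed start.

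Peak patterns went with CpG content. Of the 55 members, 40 matched a promoter of 300 bp (250 bp before to 50 bp after the start) in the RefSeq table. The motif counted was CG, which reads the same on both strands, and a promoter was called CpG-rich with at least 50% GC and an observed over expected CpG ratio of at least 0.6. Of 11 members with a peak in all 8 lists, 10 were CpG-rich, with a median of 24 CG per promoter and a range of 8 to 37. The exception was Col15a1, with 8 CG at a listed start inside the annotated gene. Of 20 members with no peak at an end, 2 were CpG-rich (Col11a2 and Col5a3), with a median of 5 CG and a range of 0 to 20. Between these lay 9 members bound in 1 to 7 lists, of which Lama5 with 24 CG was the only CpG-rich one. Over all genes in the table, 48.8% of promoters were CpG-rich. The share was 73.0% with a peak in any list and 35.3% with none. The matching member counts were 13 of 40, 11 of 20 and 2 of 20, each a lower share than that of all genes. The 10 of 11 members bound in all 8 lists had no matching value over all genes. The most CG-dense promoters were those of Col4a1 with 37, Col5a1 with 34 and Col4a2 with 33. These shares are a description with no test, and a CG count does not mark a binding site.

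**Figure D3:**
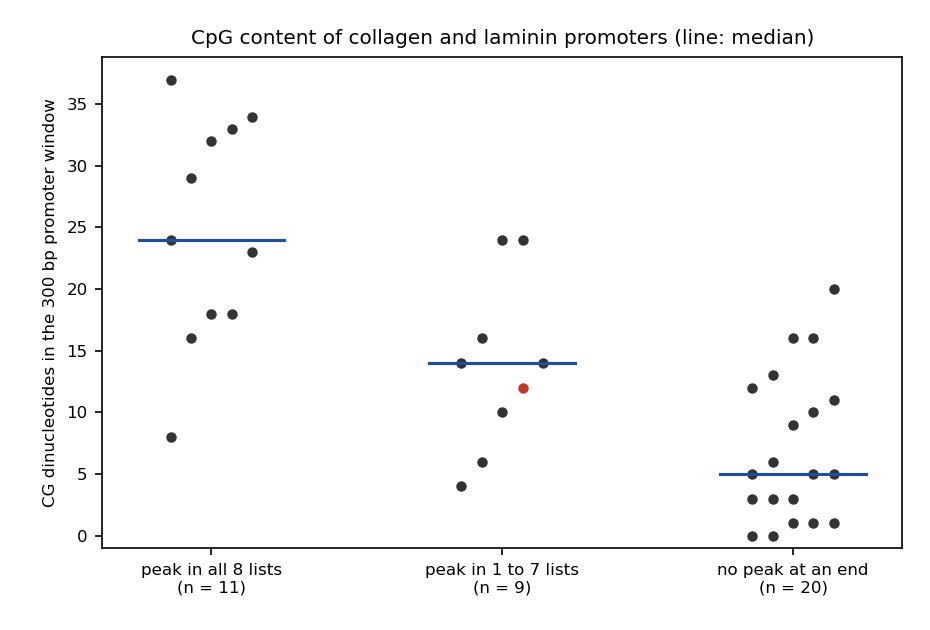
Number of CG dinucleotides in the 300 bp promoter of 40 members (points), by the lists that hold a peak; the line is the median and the red point is Col7a1, with peaks in the 4 treated lists only. The medians are 24 for members bound in all 8 lists, 14 for those bound in 1 to 7 lists and 5 for those with no peak at an end.

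Before treatment, collagens held the highest Suz12 levels of these genes, and the lowest levels were at regions with peaks in treated lists only. Low untreated levels at the latter follow from their definition, since no untreated list called a peak there. The median over the 4 untreated libraries was 77.5 CPM per kb for the 17 member regions of all 8 lists, beside 58.8 for all 4281 regions of that kind. The highest level was at Col4a1/Col4a2, with 118 ± 9.92 CPM per kb (SD, n = 4), followed by Col19a1 with 113 ± 8.35. Their order is not separated by the spread of the libraries. Col2a1 (95.3 ± 3.62), Col27a1 (94.2 ± 7.88), Col12a1 (90.8 ± 4.27) and Col14a1 (90.2 ± 8.71) came next and did not differ from each other beyond their SDs. Among regions bound in all 8 lists, Col5a1 (44.3 ± 2.12), Col23a1 (44.2 ± 4.56) and Lama1 (31.5 ± 7.33) were lowest. The lowest of all was the upper end of Lamb2, at 9.97 ± 3.36 CPM per kb. Levels per kb rest on the width of the counted peak: with the narrowest peak of each region the median of the 32 regions was 78.6 in place of 44.3.

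After both inhibitors, Suz12 counts fell at 15 of the 32 member regions, rose at 3 and did not pass at 14 (edgeR quasi-likelihood test over both drugs, adjusted p under 0.05, TMM scaling). The background was 28.9% of all regions lower and 28.0% higher, and the median log2 change was −0.32 for members and 0.05 for all regions. Much of this contrast goes with peak pattern. Of the 17 member regions bound in all 8 lists, 10 fell and 0 rose (11 had an unadjusted p under 0.05), with a median of −0.48. All regions bound in all 8 lists had 59.1% lower and 10.3% higher, with a median of −0.38, so the share of members that fell was near that of other regions with constant peaks. Among collagen regions 13 of 21 fell and 1 rose (median −0.51), and among laminin regions 2 of 11 fell and 2 rose (median 0.12). Regions bound in all 8 lists made up 13 of the collagen and 4 of the laminin regions, and the difference between the families was not tested. The treated and untreated libraries did not overlap at 17 regions, with the treated ones lower at 13 and higher at 4 (background 25.2% lower and 24.4% higher). Among those bound in all 8 lists, the treated libraries were lower at 9 and higher at 1 of 17 (background 53.0% lower and 8.46% higher).

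The split into higher and lower depends on scaling. When libraries were scaled to the regions bound in all 8 lists, the median of all regions moved to 0.41, and 8 member regions fell and 11 rose (background 10.7% lower and 49.2% higher). When they were scaled by the sum of counts, the median was 0.25, and 13 fell and 8 rose (background 18.7% lower and 39.0% higher). With the scaling to regions bound in all 8 lists, treated libraries were lower without overlap at 10 regions and higher at 8 (background 9.26% lower and 42.8% higher). Lower under all 3 scalings were Col16a1, Col25a1, Col4a3/Col4a4, Col27a1, Col19a1, Col24a1, Col15a1 and Col12a1. Higher under all 3 were Lama5, Col18a1 and the upper end of Lamb2. Each scaling counted the same stretches, the widest peak of each region. That peak came from a treated list at these higher regions. It came from an untreated list at all regions called lower with TMM except Col26a1, which favours higher counts in untreated libraries. At the higher regions and at Col24a1 no list of the other kind held a peak. Agreement between scalings therefore does not test that choice. With the narrowest peak of each region, Col23a1 alone lost its lower call.

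**Figure D4:**
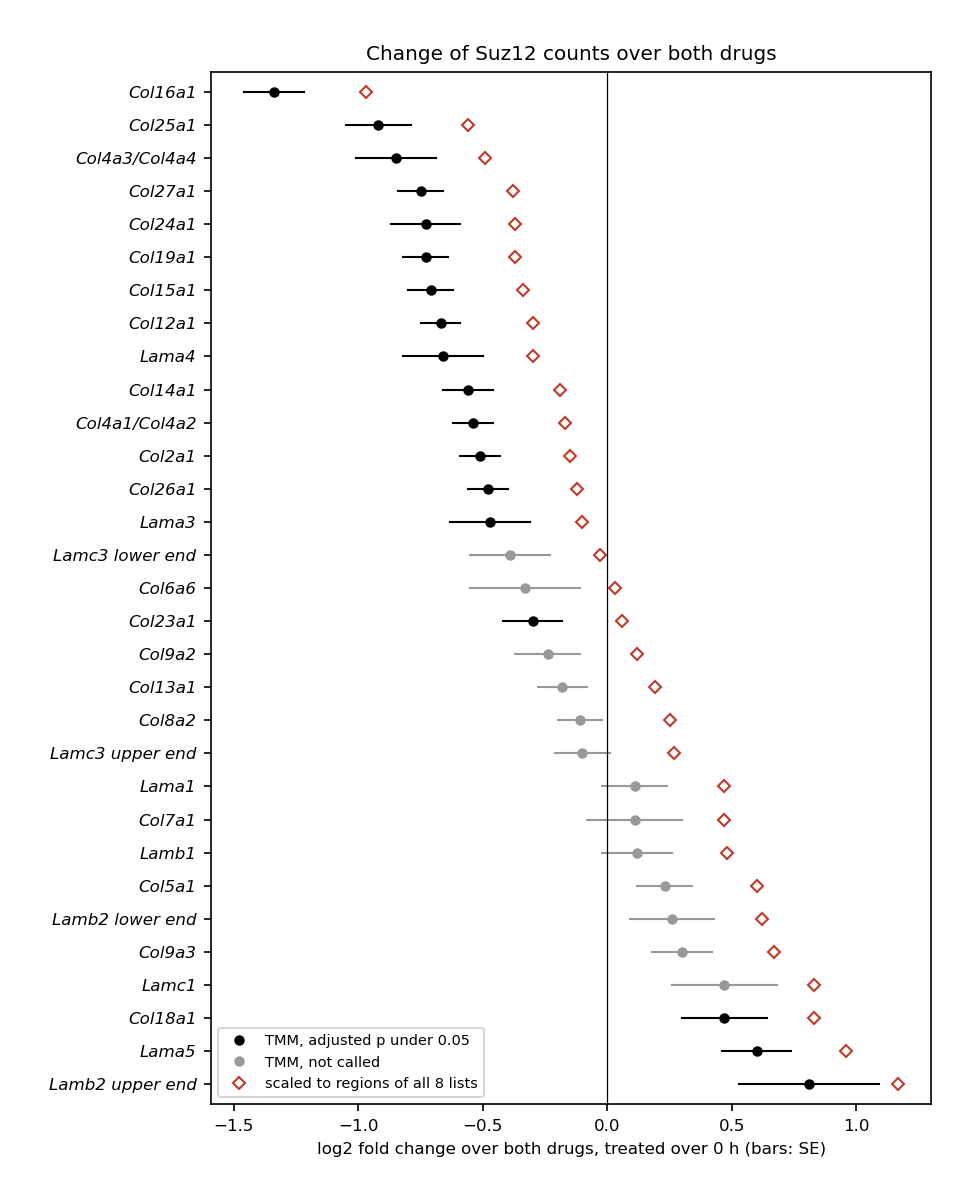
Log2 fold change of Suz12 counts over both drugs (treated over 0 h, x axis) at 31 of the 32 regions, with TMM scaling (circles with SE, black where adjusted p is under 0.05) and with scaling to the regions bound in all 8 lists (open diamonds). Values run from −1.34 at Col16a1 to 0.81 at the upper end of Lamb2, and every diamond lies to the right of its circle.

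Col16a1, a fibril-associated collagen of skin and cartilage, had the strongest decrease. Its region (chromosome 4, 130047217 to 130048511) had 20.8 and 23.1 CPM in DRB 12 h and 54.2 and 63.3 CPM in DRB 0 h libraries. It had 24.5 and 25 CPM in triptolide 9 h and 59.9 and 58.1 CPM in triptolide 0 h libraries. All 4 treated libraries were far below all 4 untreated ones. The log2 change was −1.34 ± 0.12 (SE, edgeR adjusted p = 6.98e-06), a fold of 0.396, and 22 of the 11943 regions had a lower one. It was −0.97 with libraries scaled to the regions bound in all 8 lists. The counted peak, 1267 bp wide, was that of triptolide 0 h replicate 2, a choice that favours higher counts in untreated libraries. A peak was still listed in 3 of 4 treated lists.

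Other fibril-associated collagens that fell were bound in all 8 lists. Col19a1 (chromosome 1, 24585783 to 24587934) had 151 and 158 CPM in DRB 12 h and 242 and 230 CPM in DRB 0 h libraries. It had 128 and 149 CPM in triptolide 9 h and 234 and 270 CPM in triptolide 0 h libraries, without overlap, and a log2 change of −0.73 ± 0.09 (SE, edgeR adjusted p = 4.67e-05). Col12a1, found in tendon and ligament, changed by −0.67 ± 0.08 and Col14a1 by −0.56 ± 0.10 (SE), and at both genes the treated libraries were lower without overlap. Of these, Col14a1 was no longer called with libraries scaled to the regions bound in all 8 lists (−0.19, adjusted p = 0.124). The cartilage collagens Col9a2 and Col9a3, whose chains form type IX collagen together, were not called (−0.24 ± 0.13 and 0.30 ± 0.12, SE). Scaled to the regions bound in all 8 lists, Col9a2 stayed uncalled (0.12, adjusted p = 0.449) and Col9a3 was called higher (0.67, adjusted p = 7.52e-04), as it was with scaling by the sum of counts (0.50, adjusted p = 0.00581).

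Of the fibrillar collagens, Col27a1, Col24a1 and Col2a1 fell and Col5a1 was not called. Col27a1 (chromosome 4, 63212960 to 63217073) had 250 and 219 CPM in DRB 12 h and 385 and 361 CPM in DRB 0 h libraries. It had 221 and 227 CPM in triptolide 9 h and 365 and 431 CPM in triptolide 0 h libraries, and its log2 change was −0.75 ± 0.09 (SE, edgeR adjusted p = 3.26e-05). Col24a1 fell by 0.73 on the log2 scale, without overlap of treated and untreated libraries. The only peak there, and so the stretch that was counted, came from 1 untreated library, a choice that favours higher counts in untreated libraries. Col2a1, with the widest region of the members (6701 bp), had 421 and 476 CPM in DRB 12 h and 626 and 602 CPM in DRB 0 h libraries. It had 435 and 441 CPM in triptolide 9 h and 653 and 652 CPM in triptolide 0 h libraries, and its log2 change was −0.51 ± 0.08 (SE). With libraries scaled to the regions bound in all 8 lists it was −0.15 and not called (adjusted p = 0.084), while treated libraries remained below untreated ones.

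Col5a1, whose chain takes part in starting collagen fibrils, did not pass the test. It had 166 and 123 CPM in DRB 12 h and 114 and 106 CPM in DRB 0 h libraries, and 120 and 128 CPM in triptolide 9 h and 116 and 118 CPM in triptolide 0 h libraries. Every treated value was above every untreated one, by little in triptolide. The log2 change of 0.23 ± 0.11 missed the threshold (SE, edgeR adjusted p = 0.0876) and was 0.60 with libraries scaled to the regions bound in all 8 lists (adjusted p = 4.86e-04). Its peaks were 1514 to 2561 bp wide in treated and 1210 to 1450 bp in untreated lists, again without overlap. Col25a1, also bound in all 8 lists, had peaks of 1318 to 1522 bp in treated and 1523 to 1884 bp in untreated lists, ranges that nearly touch. Widths overlapped at the other 15 of the 17 regions bound in all 8 lists. The share of all such regions with separated widths was not counted, so these widths are a description only.

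Type IV collagen fell at both bound pairs. Col4a1/Col4a2 had 303 and 306 CPM in DRB 12 h and 454 and 431 CPM in DRB 0 h libraries. It had 325 and 343 CPM in triptolide 9 h and 453 and 521 CPM in triptolide 0 h libraries, with a log2 change of −0.54 ± 0.08 (SE, edgeR adjusted p = 1.40e-04). With libraries scaled to the regions bound in all 8 lists, it was −0.17 (adjusted p = 0.0511). Col4a3/Col4a4 had 17.6 and 26.8 CPM in DRB 12 h and 50.1 and 41.4 CPM in DRB 0 h libraries, and 28.8 and 27.9 CPM in triptolide 9 h and 51.3 and 43.3 CPM in triptolide 0 h libraries. Its log2 change was −0.85 ± 0.16 (SE, adjusted p = 5.70e-04), and treated and untreated libraries did not overlap at either pair.

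Of the transmembrane collagen regions 2 fell and 0 rose, and of the multiplexin regions 1 fell and 1 rose. Col25a1 (chromosome 3, 130180195 to 130182097) is a collagen that motor axons need to innervate muscle. It averaged 60.5 ± 13.2 CPM in DRB 12 h and 114 ± 4.73 CPM in DRB 0 h libraries (SD, n = 2 each). It had 66.6 and 57.0 CPM in triptolide 9 h and 134 and 107 CPM in triptolide 0 h libraries, and its log2 change was −0.92 ± 0.13 (SE, edgeR adjusted p = 8.87e-05). Col23a1 fell by 0.30 (SE 0.12, adjusted p = 0.0438), a call that ended in 10 of 15 alternatives and turned to 0.06 with libraries scaled to the regions bound in all 8 lists. Col13a1 was not called (−0.18 ± 0.10, SE), nor under that scaling (0.19). The multiplexins Col15a1 and Col18a1 are basement membrane collagens with related C-terminal fragments, and they went opposite ways. The counted peak came from an untreated list at Col15a1 and from a treated list at Col18a1. Col15a1 changed by −0.71 ± 0.09 (SE, adjusted p = 4.39e-05) with all treated libraries below all untreated ones.

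Col18a1 (chromosome 10, 77165249 to 77166570) had 34.0 and 27.3 CPM in DRB 12 h and 21.4 and 17.9 CPM in DRB 0 h libraries. It had 25.4 and 28.3 CPM in triptolide 9 h and 25.2 and 18.4 CPM in triptolide 0 h libraries. Treated libraries were above untreated ones, with 25.4 and 25.2 CPM at the closest pair. Its log2 change was 0.47 ± 0.17 (SE, edgeR adjusted p = 0.0269). The call was lost without DRB 0 h index TGACCA (0.39), triptolide 9 h replicate 2 (0.44) or triptolide 0 h replicate 2 (0.37), and in DESeq2 (0.46). Its region and those of Lama5, Lamc1, Lamb2 and Col7a1 owe their boundaries to treated libraries alone, a choice that favours higher counts in those libraries. Of these 6 regions 3 rose, and the counts behind them were low.

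Lama5, the alpha chain of the laminin on which embryonic stem cells grow well, was the member whose rise was called in all 15 alternatives to its fit, unlike those of Col18a1 and Lamb2. Its region (chromosome 2, 180224894 to 180226121) had 27.2 and 26.4 CPM in DRB 12 h and 15.6 and 16.2 CPM in DRB 0 h libraries. It had 28.8 and 28.1 CPM in triptolide 9 h and 21.2 and 19.9 CPM in triptolide 0 h libraries. All treated values were above all untreated ones, and the log2 change was 0.60 ± 0.14 (SE, edgeR adjusted p = 0.00357). The values rest on 68 to 210 reads in treated and 19 to 74 reads in untreated libraries. In every alternative the counted stretch of Lama5 was set by treated libraries alone. Lamc1, the gamma chain that pairs with it, had 24.4 and 20.6 CPM in DRB 12 h and 9.04 and 16.2 CPM in DRB 0 h libraries. It had 15.7 and 24.1 CPM in triptolide 9 h and 14.9 and 18.4 CPM in triptolide 0 h libraries. The groups overlapped, and a log2 change of 0.47 ± 0.21 missed the threshold (SE, adjusted p = 0.0749). It passed without DRB 0 h index TGACCA (0.78) or triptolide 9 h replicate 1 (0.62), with scaling by the sum of counts (0.67) and with scaling to the regions bound in all 8 lists (0.83).

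Of the remaining laminin regions described here, 1 rose, 2 fell and 5 did not pass. The upper end of Lamb2 (chromosome 9, 108490671 to 108491342) rose by 0.81 ± 0.28 (SE, edgeR adjusted p = 0.0251), on 41 to 90 reads in treated and 6 to 34 reads in untreated libraries, and its groups overlapped. That call was lost without any of DRB 0 h index ATCACG (0.74), DRB 0 h index TGACCA (1.00), triptolide 9 h replicate 2 (0.71) or triptolide 0 h replicate 2 (0.63). The lower end of Lamb2, near its start, was not called (0.26 ± 0.17, SE), but was called higher with scaling by the sum of counts (0.46, adjusted p = 0.0486) or to the regions bound in all 8 lists (0.62, adjusted p = 0.0096). Lama1 (0.11 ± 0.13) and Lamb1 (0.12 ± 0.14, SE) were not called, and both were called higher with libraries scaled to the regions bound in all 8 lists (0.47 and 0.48). Both ends of Lamc3 (−0.39 ± 0.16 at the lower and −0.10 ± 0.11 at the upper end, SE) were not called either, nor under scaling to the regions bound in all 8 lists (−0.03 and 0.27). Lama4 changed by −0.66 ± 0.16 (SE, adjusted p = 0.00389) and Lama3 by −0.47 ± 0.16 (SE, adjusted p = 0.0268). Neither was called with libraries scaled to the regions bound in all 8 lists (−0.30 and −0.10), and Lama3 also lost its call with scaling by the sum of counts (−0.27), in DESeq2 (−0.47) and without DRB 0 h index TGACCA (−0.25), triptolide 9 h replicate 2 (−0.37), triptolide 0 h replicate 1 (−0.47) or triptolide 0 h replicate 2 (−0.46).

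Col7a1, bound in the treated lists only, showed no called difference in counts. It had 20.4 and 37.3 CPM in DRB 12 h and 32.9 and 26.8 CPM in DRB 0 h libraries, and 42.1 and 35.2 CPM in triptolide 9 h and 38.7 and 30.3 CPM in triptolide 0 h libraries. The groups overlapped in both drugs, with a log2 change of 0.11 ± 0.19 (SE, edgeR adjusted p = 0.644). The remaining regions, those of Col26a1 (−0.48 ± 0.08, SE, lower), Col8a2 (−0.11 ± 0.09) and Col6a6 (−0.33 ± 0.22, SE), completed the set, the last 2 not called. Scaled to the regions bound in all 8 lists, Col26a1 was no longer called (−0.12, adjusted p = 0.226), Col8a2 was called higher (0.25, adjusted p = 0.0214) and Col6a6 stayed uncalled (0.03).

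**Figure D5:**
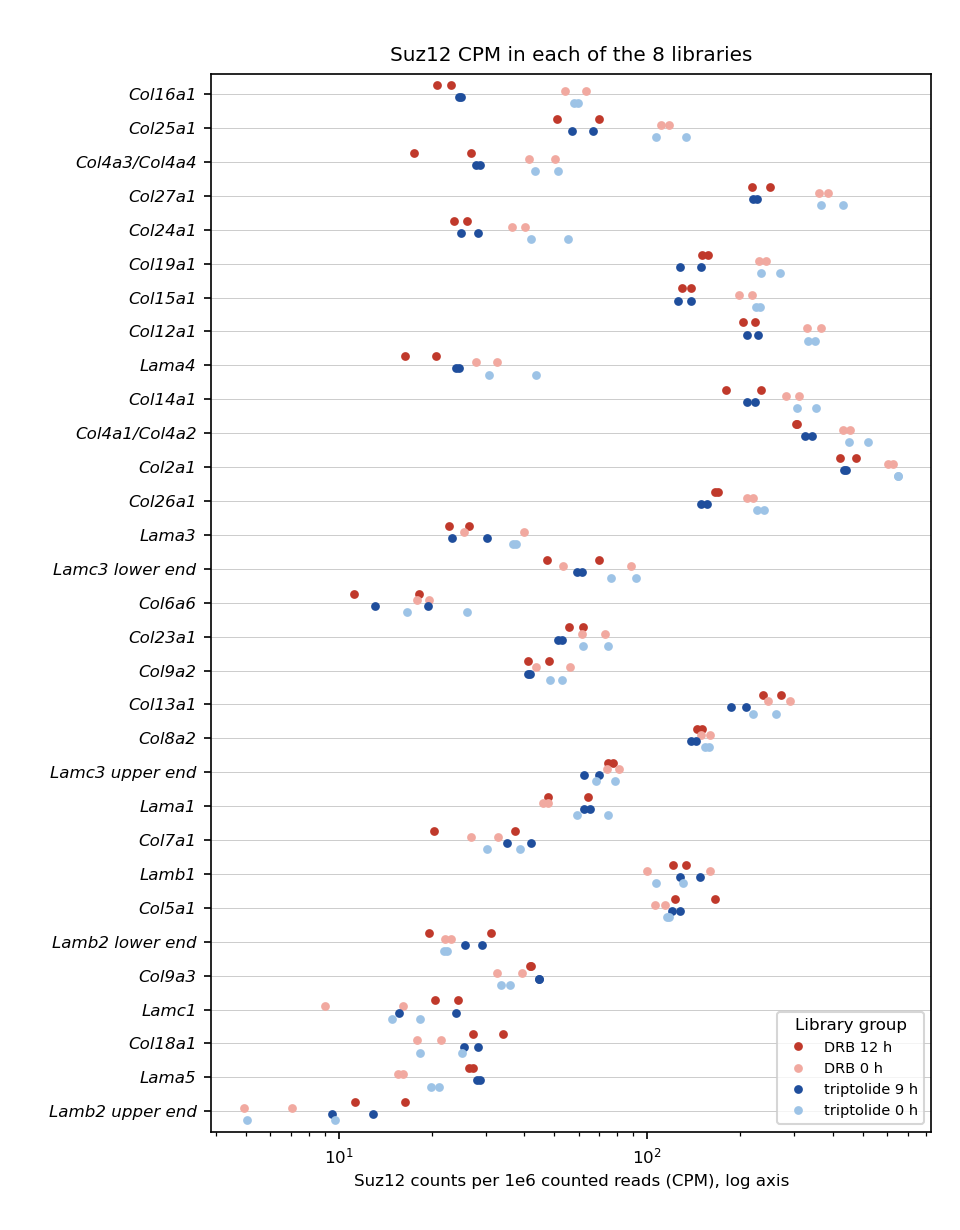
Suz12 CPM (log axis) in each of the 8 libraries at 31 of the 32 regions, ordered by log2 change over both drugs from the lowest at the top; dark points are treated and pale points untreated libraries. At the top 13 rows dark points lie below pale ones, and at Col5a1, Col9a3, Col18a1 and Lama5 they lie above.

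DRB and triptolide were each compared with their own 0 h libraries, and no difference between them was called at these genes. Counts fell at 13 of 32 member regions under DRB and rose at 2 (Lama5 and Col18a1), against a background of 19.2% lower and 18% higher. They fell at 13 and rose at 0 under triptolide, against 21.9% lower and 19.3% higher (15 regions had an unadjusted p under 0.05). Of the 17 regions bound in all 8 lists, 9 fell and 0 rose under each drug, against 42.4% lower and 6.82% higher under DRB and 48.7% lower and 6.77% higher under triptolide among all regions of that kind. With libraries scaled to those regions, 5 member regions fell and 7 rose under each drug, against a background of 4.78% lower and 33.0% higher under DRB and 4.75% lower and 38.0% higher under triptolide. Scaled by the sum of counts, 9 fell and 4 rose under DRB (background 10.8% lower and 23.8% higher), and 10 fell and 2 rose under triptolide (background 11.1% lower and 28.5% higher). The same 13 regions were lower under each drug, and the sign was the same at 31 of 32 regions, the exception being Lama1 (0.28 ± 0.19 under DRB and −0.06 ± 0.18 under triptolide, SE). Across the 32 regions the changes under the drugs had a Pearson r of 0.949, a description of regions scaled and merged together, which are not replicates. The test of the difference between drugs called 0 member regions in edgeR and 0 in DESeq2, with 0 at an unadjusted p under 0.05 (background 0.0167% lower and 0% higher). Differences ran from −0.21 to 0.49 on the log2 scale with a median SE of 0.25. Agent, dose and time differ together between the drugs.

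Genes that process or receive collagen and laminin were read from a list of 57 genes. Of their 45 regions 13 were called higher and 22 lower over both drugs, with a median log2 change of −0.36, where 28.0% of all regions were called higher and 28.9% lower. With libraries scaled to the regions bound in all 8 lists 19 were called higher and 7 lower, where the shares over all regions were 49.2% and 10.7%. Of 16 other basement membrane genes, 11 regions were bound, of which 2 rose and 6 fell (3 and 2 under that other scaling). Agrn, which encodes the heparan sulfate proteoglycan agrin, had 59.2 and 40.3 CPM in DRB 12 h and 14 and 19.1 CPM in DRB 0 h libraries. It had 44.2 and 36.0 CPM in triptolide 9 h and 14.9 and 22 CPM in triptolide 0 h libraries, and its log2 change of 1.31 ± 0.19 (SE, edgeR adjusted p = 1.14e-04). Its peaks were in the 4 treated lists only, so the counted stretch was set by treated libraries, a choice that favours higher counts in them. Smoc1 rose by 0.47, while Smoc2 (−0.85), Frem2 (−0.76) and Egflam (−0.60) fell. Egflam was no longer called when libraries were scaled to the regions bound in all 8 lists (−0.23, adjusted p = 0.0573). The basement membrane genes Nid1, Nid2, Hspg2, Sparc and Fn1 had no peak at an end.

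Of 26 genes of collagen synthesis and processing, 24 regions were bound. Of these, 8 rose and 11 fell, where 28.0% of all regions rose and 28.9% fell. With libraries scaled to the regions bound in all 8 lists, 12 rose and 4 fell, where the shares over all regions were 49.2% and 10.7%. Plod1, a lysyl hydroxylase, had 38.8 and 31.9 CPM in DRB 12 h and 23.8 and 19.3 CPM in DRB 0 h libraries. It had 35.1 and 31.6 CPM in triptolide 9 h and 18.1 and 19.9 CPM in triptolide 0 h libraries, with a log2 change of 0.78 ± 0.15 (SE). P3h1, a prolyl 3-hydroxylase, rose by 0.76 and Pcolce2, an enhancer of the procollagen C-proteinase, by 0.85. The regions of Plod1 and P3h1 had peaks in the 4 treated lists only, the same choice as at Agrn. Adamts2, the procollagen N-proteinase, fell by 0.82, P3h2 by 0.78 and Tll1 by 0.61. Of 15 receptor genes, 10 regions were bound, of which 3 rose and 5 fell (4 and 1 under that other scaling). Itgb1, the beta chain shared by most collagen and laminin integrins, rose by 0.87 ± 0.18 (SE), Itga6, a laminin receptor chain, by 0.52 and Mrc2, an uptake receptor for collagen, by 0.44. The regions of Itgb1 and Itga6 had peaks in 3 treated lists and no others, while Mrc2 had peaks in all 8 lists. The collagen receptor chains Itga2 (−0.81), Itga11 (−0.73) and Itga1 (−0.57) fell. Scaled to the regions bound in all 8 lists, Itga11 was still called (−0.36, adjusted p = 0.018), and Itga2 (−0.45, adjusted p = 0.0971) and Itga1 (−0.20, adjusted p = 0.243) were not.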

How the data were processed

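Suz12 ChIP-seq of mouse ES cells was read from 8 peak lists and 8 columns of raw read counts over peaks, deposited by the authors as whole-number counts with no normalization. Reads were aligned with Bowtie and peaks called with MACS on mm10 (GRCm38), per the submitters' processing notes, which give no versions. Peaks were called per library. The 5 other count columns and 12 of the 20 samples were not used here. DRB count columns carry an index and no replicate number, so they were placed by group only.

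Peaks overlapping by 1 bp were merged, and each region took the counts over its widest peak. Counts were fitted with edgeR 4.0.16 (quasi-likelihood, TMM, no filter, R 4.3.3) in 4 groups, with contrasts for both drugs, each drug and their difference, and Benjamini-Hochberg adjustment over all 11943 regions at 0.05. DESeq2 1.42.0, other scalings, a filter, narrowest peaks, other windows and leaving out each library were alternatives. The fit was tested on simulated data in which few regions changed, with directions drawn at random. Many regions were called in the real data, so that test does not bear on the choice of scaling. Gene ends came from RefSeq (GRCm38.p6). Counts of replicates differed by more than sampling noise (chi-square per degree of freedom of 2.47 to 8.65). Precision follows the reads per region, and TMM assumes that most regions do not change.

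Members and gene lists were chosen with earlier results of these data known. Named genes were those with peaks in all treated or all untreated lists only, the 6 highest and 6 lowest called changes, the 6 highest and 3 lowest levels, set laminin and collagen chains, and up to 3 genes per direction of each pathway list; other members complete the account. The values of 1 laminin gene are counted in the totals and not reported here.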

Additional observations from a re-analysis of the deposited data

How the results depend on the processing

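With libraries scaled to the regions bound in all 8 lists, 11 member regions were higher and 8 lower over both drugs, 7 and 5 under DRB, and 7 and 5 under triptolide. Over all regions these were 5871 and 1275, 3941 and 571, and 4539 and 567, and 7 pathway regions were lower. Scaled by the sum of counts, 8 member regions were higher over both drugs, 4 under DRB and 2 under triptolide, and 2238, 1291 and 1324 of all regions were lower. Under DRB, 1 member region was higher with DESeq2 size factors, 1 with narrowest peaks and 0 in DESeq2's test. Col23a1 turned to 0.06 with the scaling to regions bound in all 8 lists. The cause was not tested.

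Leaving out each library gave 1 to 5 higher and 13 to 16 lower member regions over both drugs (5 higher without DRB 12 h index ATCACG, and 1 without triptolide 9 h replicate 2 or triptolide 0 h replicate 2). It gave 0 to 4 and 9 to 13 under DRB, and 0 to 1 and 9 to 14 under triptolide. Over all regions the ranges were 2735 to 3588 higher and 2868 to 3776 lower, 1089 to 2169 and 1203 to 2772 under DRB, 1299 to 2946 and 1120 to 3000 under triptolide, and 0 to 7 lower for the difference. Under triptolide, all regions had 1299 higher and 1187 lower without triptolide 9 h replicate 1, 1311 and 1120 without triptolide 9 h replicate 2, 1319 and 1663 without triptolide 0 h replicate 1, and 1418 and 1703 without triptolide 0 h replicate 2. Signs turned for Lamb1 (−0.06 without DRB 0 h index TGACCA), Lama1 (−0.02) and Col7a1 (−0.17, both without DRB 12 h index TGACCA), none of them called.

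With peaks of at least 1357 bp, 10 members had peaks in all lists, 0 in the treated lists only and 35 in none. Asking for 3 of 4 lists, or leaving out triptolide 9 h replicate 1, put 4 members in the treated-only class. Leaving out each list gave 17 to 19 members in all lists, 1 to 4 treated-only and 23 to 24 with none. The median level was 78.6 CPM per kb with narrowest peaks. A stricter CpG threshold left 6, 0 and 0 CpG-rich members among those bound in all lists, in some and in none.

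With the replicate number as a block in the triptolide libraries, 3 member regions were higher and 14 lower over both drugs, 0 and 13 under triptolide, and 0 for the difference. Replicate deviations correlated at 0.394 over 2 pairs, and the labels give no pairing. DRB columns carry no replicate number, so no block could be fitted there. Regions with few reads, such as the upper end of Lamb2, limit what can be called.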
